A study of Mus musculus with 6 samples.

Results

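A set of 10 genes of the interferon-induced antiviral response were followed in mouse piriform cortex: Mx1, Mx2, Rsad2, Cmpk2, Bst2, Ifi44, Ifi27, Ifi27l2a, Xaf1 and Rtp4. They were taken by gene name, and all 10 were present among the 53715 genes of the count table. Poly(A) RNA of this tissue, the main cortical area for smell, was read in 6 libraries made from Gad2-Cre mice, whose Cre recombinase is made in cells that use the Gad2 gene of GABA synthesis. In 3 libraries (the Caspase3 group) the mice had received AAV-DIO-Caspase3, an adeno-associated virus that delivers the apoptotic protease only where Cre is present, on 1 side of the piriform cortex. In the other 3 (the GFP group) they had received AAV-DIO-GFP, so the controls also carried both Cre and a viral vector. Age, sex, strain background, sampled hemisphere and the interval after injection are not given in the sources used here. Nor do the sources state whether each library is a different animal. The p-values therefore cover only the spread among libraries, which may be technical.

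Type I interferon binds a receptor whose JAK kinases activate transcription factors. These bind the interferon-stimulated response element of many genes, which is how cells raise proteins that block different steps of a viral life cycle. Among the 10 genes here, the Mx GTPases trap incoming viral components, and viperin (Rsad2) and Cmpk2 alter nucleotides. Tetherin (Bst2) holds budding particles at the membrane, and Xaf1 antagonises an inhibitor of apoptosis.

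Total counts lay between 20424581 and 26268377 per library, and 3 counts, the limit that a count of 0 allows, corresponded to 0.118 to 0.142 CPM (the usual depth-scaled count, here with TMM factors). Gad2 stood at 26.7, 38.5 and 38.0 CPM in Caspase3 replicates 1, 2 and 3 and at 92.3, 117.9 and 103.5 CPM in GFP replicates 1, 2 and 3 (log2 fold change -1.60 ± 0.15 SE, adjusted p = 0.00371). Cortical excitatory markers (6 genes, among them Slc17a7 and Tbr1) summed to 3512 to 3819 CPM in the Caspase3 group and 3372 to 3974 CPM in the GFP group. The 7 striatal markers summed to 1144 CPM in GFP replicate 3, against 188.5 to 295.8 CPM in the other libraries, so results are also given without that library. In a bulk sample, more cells of a type and more RNA per cell cannot be told apart.

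All 10 genes rose in the Caspase3 group, by 2.25-fold to 46.7-fold. Over all 16721 tested genes, 255 (1.53%) were called higher and 19 (0.114%) lower at an adjusted p under 0.05 in edgeR's quasi-likelihood test. The median log2 fold change was 3.85 over the 10 genes and -0.00114 over all tested genes. For each of the 10, every Caspase3 library lay above every GFP library, which held for 8.96% of all tested genes. Expression of the 10 genes varied together across libraries, so they do not count as 10 separate observations. They were also chosen with earlier results of these data known, so their contrast with all tested genes is a description and not a test.

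**Figure D1:**
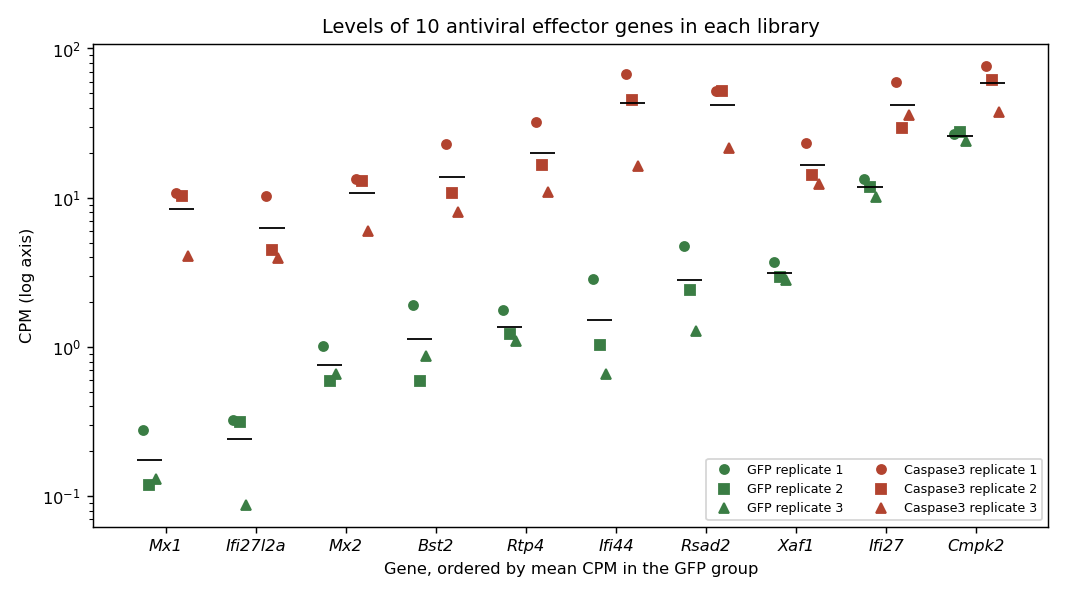
CPM of the 10 genes in each library, on a log axis, with the group mean as a line (n = 3 per group). Caspase3 libraries sit above GFP libraries for every gene, with the narrowest gap at Cmpk2, where the lowest Caspase3 library was at 37.5 CPM and the highest GFP library at 27.6 CPM.

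The Mx genes encode dynamin-like GTPases. Mouse Mx1 is nuclear and acts on influenza-type viruses, whereas mouse Mx2 is cytoplasmic and acts on vesicular stomatitis virus. Many inbred laboratory strains carry inactivating changes in one or both genes, and transcript levels do not show whether functional protein was made. Mx1 (ENSMUSG00000000386, chromosome 16, 97447035 to 97462907, minus strand, GRCm38) stood at 10.7, 10.3 and 4.06 CPM in Caspase3 replicates 1, 2 and 3 and at 0.279, 0.119 and 0.132 CPM in the GFP replicates. Mx1 was near the limit of detection in every GFP library, with counts of 6, 3 and 3, and was plainly detected in every Caspase3 library, with counts of 226, 227 and 103. Its log2 fold change of 5.54 ± 0.51 (SE) was the largest of the 10 (46.7-fold, adjusted p = 0.00371). With only 12 GFP counts, the ratio of pooled rates was 47.0 with an exact 95% interval of 26.7 to 91.6, which covers counting error only.

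Mx2 (ENSMUSG00000023341, chromosome 16, 97535308 to 97560900, plus strand), annotated as a polymorphic pseudogene, stood at 13.4, 13.0 and 6.03 CPM in the Caspase3 replicates and at 1.02, 0.593 and 0.658 CPM in the GFP replicates. As for Mx1, Caspase3 replicates 1 and 2 were close together and replicate 3 was lower. Mx2 rose 14.3-fold (log2 fold change 3.83 ± 0.37, adjusted p = 0.00371). These were the only members still called when GFP replicate 2 was left out, each with an adjusted p of 0.0494 in that fit and of at most 0.0343 in each of the other 14 alternatives.

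Viperin, the product of Rsad2, is a radical S-adenosylmethionine enzyme that turns CTP into a chain-terminating nucleotide. Cmpk2 is a mitochondrial nucleoside monophosphate kinase that acts in the supply of CTP. Their genes lie head to head on chromosome 12, Rsad2 (ENSMUSG00000020641) at 26442746 to 26456452 on the minus strand and Cmpk2 (ENSMUSG00000020638) at 26469204 to 26479837 on the plus strand, with 12752 bases between the starts. Their promoter windows, 250 bases before to 50 bases after the RefSeq start (GRCm38.p6), are shown for this adjacent pair. Capitals mark a match to the core of the interferon-stimulated response element, GAAANNGAAA or its reverse complement TTTCNNTTTC, searched on both strands. The Rsad2 window, chr12:26456403-26456702, is given on the minus strand and the Cmpk2 window, chr12:26468965-26469264, on the plus strand.
Rsad2: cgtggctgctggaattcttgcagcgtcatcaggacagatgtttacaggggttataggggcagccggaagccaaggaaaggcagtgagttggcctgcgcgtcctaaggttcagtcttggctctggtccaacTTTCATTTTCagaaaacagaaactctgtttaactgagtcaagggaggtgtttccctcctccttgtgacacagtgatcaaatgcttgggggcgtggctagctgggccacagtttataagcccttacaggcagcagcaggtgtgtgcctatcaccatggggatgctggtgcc
Cmpk2: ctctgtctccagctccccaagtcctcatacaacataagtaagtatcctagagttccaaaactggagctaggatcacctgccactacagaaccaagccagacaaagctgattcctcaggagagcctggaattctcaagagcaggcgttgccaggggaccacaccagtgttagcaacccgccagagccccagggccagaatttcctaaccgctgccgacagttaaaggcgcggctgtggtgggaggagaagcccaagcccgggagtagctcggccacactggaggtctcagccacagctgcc

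The Rsad2 window held 1 match, 120 to 111 bases before the start, and the Cmpk2 window held none. Such a match stood in 3.44% of all 32851 mouse promoter windows. Whether a match bears on the size of a rise was not tested. Rsad2 was at 52.0, 51.6 and 21.7 CPM in the Caspase3 replicates and at 4.75, 2.41 and 1.27 CPM in the GFP replicates. GFP replicate 1 was the highest control and Caspase3 replicate 3 the lowest of its group. Rsad2 rose 14.9-fold (log2 fold change 3.90 ± 0.47, adjusted p = 0.00541).

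Cmpk2 already had a substantial control level, at 26.5, 27.6 and 23.8 CPM in the GFP replicates, and stood at 76.4, 61.9 and 37.5 CPM in the Caspase3 replicates. The GFP libraries were close together and the spread lay in the Caspase3 group. Its rise of 2.25-fold was the smallest of the 10 (log2 fold change 1.17 ± 0.22, adjusted p = 0.0360). This call was the least stable. Cmpk2 missed the threshold in 8 of 15 alternatives. Its adjusted p lay between 1.16e-09 and 0.153 over all 15, and between 0.0514 and 0.153 in the 8 misses. Among these misses were the fits without Caspase3 replicate 2 (0.0888), GFP 1 (0.105), GFP 2 (0.152) or GFP 3 (0.111).

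Bst2 encodes tetherin, which anchors enveloped virus particles to the cell that made them. Its promoter window (chr8:71537423-71537722, minus strand, RefSeq, GRCm38.p6) is shown because it held 2 overlapping matches to the response element core, 130 to 121 and 124 to 115 bases before the start, marked in capitals.
Bst2: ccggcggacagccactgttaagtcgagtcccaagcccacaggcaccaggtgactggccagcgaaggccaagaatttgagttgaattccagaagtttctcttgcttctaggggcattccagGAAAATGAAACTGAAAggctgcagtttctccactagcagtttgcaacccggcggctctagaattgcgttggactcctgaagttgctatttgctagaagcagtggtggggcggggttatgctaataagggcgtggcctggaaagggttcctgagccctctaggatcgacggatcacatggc

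A match to the core of the gamma-activated site, TTCNNNGAA, lay 136 to 128 bases before the Bst2 start and overlapped the first of these; 8.30% of all promoter windows held 1 or more. Bst2 (ENSMUSG00000046718, chromosome 8, 71534255 to 71537456) stood at 22.8, 10.8 and 7.997 CPM in the Caspase3 replicates and at 1.91, 0.593 and 0.877 CPM in the GFP replicates. Caspase3 replicate 1 stood apart from replicates 2 and 3. Bst2 rose 12.4-fold (log2 fold change 3.63 ± 0.49, adjusted p = 0.00768), and its log2 fold change was 4.23 without GFP replicate 1.

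Ifi44, a cytoplasmic protein with a GTP-binding motif, and Xaf1, an antagonist of the apoptosis inhibitor Xiap, had no exact match to either core in their windows. After the sequences were seen, near matches that differ at 1 of the 8 fixed letters were also searched. These were common, at 34% of all windows, and were found for Ifi44 (4) and Xaf1 (2). The Rsad2 and Bst2 windows also held a near match, and the Cmpk2 window held none. For Ifi44 and Xaf1 the stretch with the near match farthest from the start, in capitals, is shown on the gene's strand (RefSeq, GRCm38.p6). The Ifi44 stretch is chr3:151749946-151749975 (minus strand) and the Xaf1 stretch chr11:72301602-72301631 (plus strand). The 10 capitals run from 55 to 46 bases before the RefSeq start in Ifi44 and from 17 to 8 bases before it in Xaf1. The RefSeq start of Ifi44 lies inside the gene span given below, so the Ifi44 capitals straddle the edge of that span.
Ifi44: gtatacagagTTTCAGTTTTcgtttcccga
Xaf1: gggcaaacacTTTCAGTTTTgttttcctgt

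Ifi44 (ENSMUSG00000028037, chromosome 3, 151730922 to 151749960) stood at 67.7, 45.2 and 16.4 CPM in the Caspase3 replicates and at 2.84, 1.03 and 0.658 CPM in the GFP replicates. It was the most variable of the 10 in both groups, with a coefficient of variation of 59.6% and 77.4%. Ifi44 rose 28.9-fold (log2 fold change 4.85 ± 0.61, adjusted p = 0.00611), and its log2 fold change was 5.65 without GFP replicate 1. Xaf1 (ENSMUSG00000040483, chromosome 11, 72301629 to 72313733) stood at 23.3, 14.2 and 12.4 CPM against 3.72, 2.93 and 2.81 CPM. Its groups were wide apart relative to their spread, and it rose 5.28-fold (log2 fold change 2.40 ± 0.26, adjusted p = 0.00405). RefSeq promoter windows were matched by symbol for 5 members, and Mx1, Mx2, Ifi27, Ifi27l2a and Rtp4 had no entry. Among tested genes with a window, an exact response element core stood in 30.2% of the 192 called higher and in 3.79% of all 11648.

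Ifi27 and Ifi27l2a belong to a family of small hydrophobic interferon-induced proteins found in mitochondrial and nuclear membranes. They lie tail to tail on chromosome 12, Ifi27 (ENSMUSG00000064215) at 103434211 to 103440239 on the plus strand and Ifi27l2a (ENSMUSG00000079017) at 103442167 to 103443680 on the minus strand, with 1927 bases between their ends. Ifi27 stood at 59.9, 29.4 and 35.7 CPM in the Caspase3 replicates and at 13.5, 11.8 and 10.05 CPM in the GFP replicates. It was the 1 member for which Caspase3 replicate 2, not 3, was the lowest of its group, and it rose 3.54-fold (log2 fold change 1.82 ± 0.25, adjusted p = 0.00779). Ifi27l2a stood at 10.2, 4.50 and 3.98 CPM against 0.326, 0.316 and 0.0877 CPM. Its GFP counts were 7, 8 and 2, and it rose 24.9-fold (log2 fold change 4.64 ± 0.53, adjusted p = 0.00464; exact 95% interval of the pooled ratio 15.3 to 43.1, counting error only).

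Rtp4 encodes a chaperone that helps receptors reach the cell surface and that restricts flavivirus replication. Rtp4 (ENSMUSG00000033355, chromosome 16, 23520291 to 23614222, plus strand) stood at 32.1, 16.5 and 10.99 CPM in the Caspase3 replicates and at 1.77, 1.23 and 1.10 CPM in the GFP replicates. The control libraries were close together, and Caspase3 replicate 1 was the highest library. Rtp4 rose 14.6-fold (log2 fold change 3.86 ± 0.41, adjusted p = 0.00405). In GENCODE M21 (GRCm38) its exons share 296 bases with those of Gm45338 on the same strand, which had 47 counts over all libraries, so some Rtp4 reads may have been assigned elsewhere or dropped. None of the other 9 members overlapped another gene in that annotation.

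Levels of different genes were compared per length, on the deposited FPKM values (reads scaled to gene length and library depth). In the GFP group Ifi27 was highest, at 8.03 ± 1.17 FPKM (SD, n = 3), followed by Cmpk2 at 6.25 ± 0.50 FPKM. Their ranges did not overlap each other or that of Bst2, next at 1.25 ± 0.76 FPKM. The ranges of neighbours from Bst2 down to Mx2 in this order (Xaf1, Rsad2, Rtp4, Ifi27l2a, Ifi44 in between) overlapped, and Mx1 was lowest at 0.0484 ± 0.0244 FPKM, below all Mx2 libraries. Ifi27 and Cmpk2 thus made up 43.5% ± 1.43 and 34.2% ± 4.44 (SD, n = 3) of the summed FPKM of the 10 genes.

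In the Caspase3 group the levels were more even. Ifi27 was again highest in the mean, at 28.1 ± 10.6 FPKM, then Bst2 at 15.2 ± 8.48, Cmpk2 at 13.9 ± 4.63 and Ifi27l2a at 13.3 ± 7.30 FPKM, and Mx1 was lowest at 2.27 ± 1.01 FPKM. Here the range of each gene overlapped that of the next in the order. The share of the summed FPKM was 27.6% ± 6.997 for Ifi27 and 13.6% ± 2.17 for Cmpk2. The 2 members with the highest control levels had the smallest fold changes and the member with the lowest control level had the largest, a description over 10 genes whose fold change and control level share the GFP libraries.

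The adjacent genes within each pair changed by unequal amounts. Mx1 over Mx2 had log2 FPKM ratios of -0.34, -0.35 and -0.58 in Caspase3 replicates 1, 2 and 3 and of -1.89, -2.33 and -2.33 in the GFP replicates. Rsad2 over Cmpk2 had -0.61, -0.32 and -0.85 against -2.54, -3.58 and -4.29, and Ifi27l2a over Ifi27 had -0.89, -1.04 and -1.50 against -3.70, -3.56 and -5.18. The GFP counts were only 6, 3 and 3 for Mx1 and 7, 8 and 2 for Ifi27l2a. Counting error is therefore large in the GFP ratios of those 2 pairs. In every pair the Caspase3 libraries lay above the GFP libraries. The differences of the group means were 1.76, 2.87 and 3.002, each with a two-sided exact permutation p of 0.1 (0.1 adjusted over the 3 pairs), the smallest that 3 against 3 libraries can give.

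**Figure D2:**
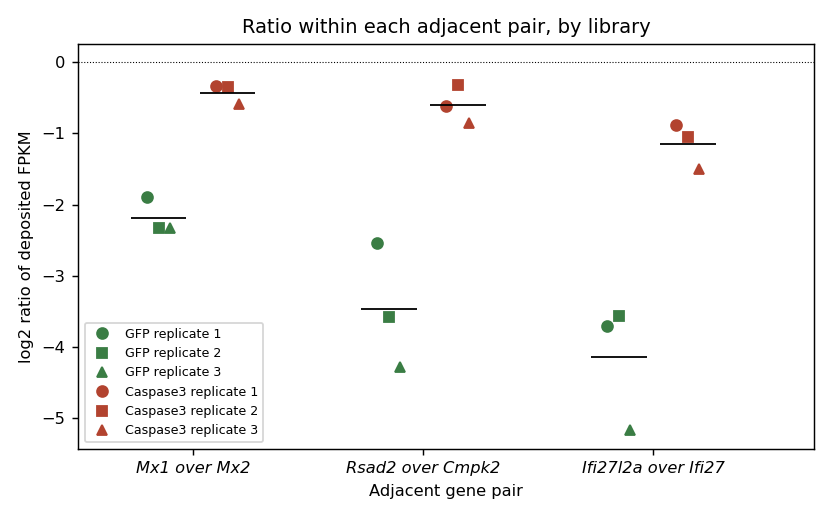
Log2 ratio of deposited FPKM within each of the 3 adjacent gene pairs, by library, with group means as lines (n = 3 per group); 0, dotted, marks equal levels per length. All ratios are below 0, and the Caspase3 libraries, at -1.50 to -0.32, lie nearer to it than the GFP libraries, at -5.18 to -1.89. Mx1 and Ifi27l2a had few counts in the GFP libraries.

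The order of libraries was shared by most members. Caspase3 replicate 1 was the highest of its group for all 10 genes and replicate 3 the lowest for 9. GFP replicate 1 was the highest control for 9 genes, the exception being Cmpk2. Summed over the 10 genes, the level was 368.5, 257.5 and 156.7 CPM in Caspase3 replicates 1, 2 and 3 and 56.6, 48.7 and 41.5 CPM in the GFP replicates. Other antiviral effectors (35 genes, described next) followed the same order, at 1998, 1380 and 923.2 CPM against 387.4, 320.6 and 316.6 CPM. Without Caspase3 replicate 1 all 10 genes were still called, with log2 fold changes between 0.93 and 5.33, and without Caspase3 replicate 1 and GFP replicate 3 together 9 were called, all but Cmpk2. Without GFP replicate 2, 2 of 10 were called, the other 8 having adjusted p of 0.0562 to 0.152. The log2 fold changes in that fit, 1.22 to 5.32, still spanned nearly the range with all libraries, 1.17 to 5.54. Calls over all genes fell too. In that fit 15 of 17165 tested genes were called higher, against 255 of 16721 with all libraries.

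**Figure D3:**
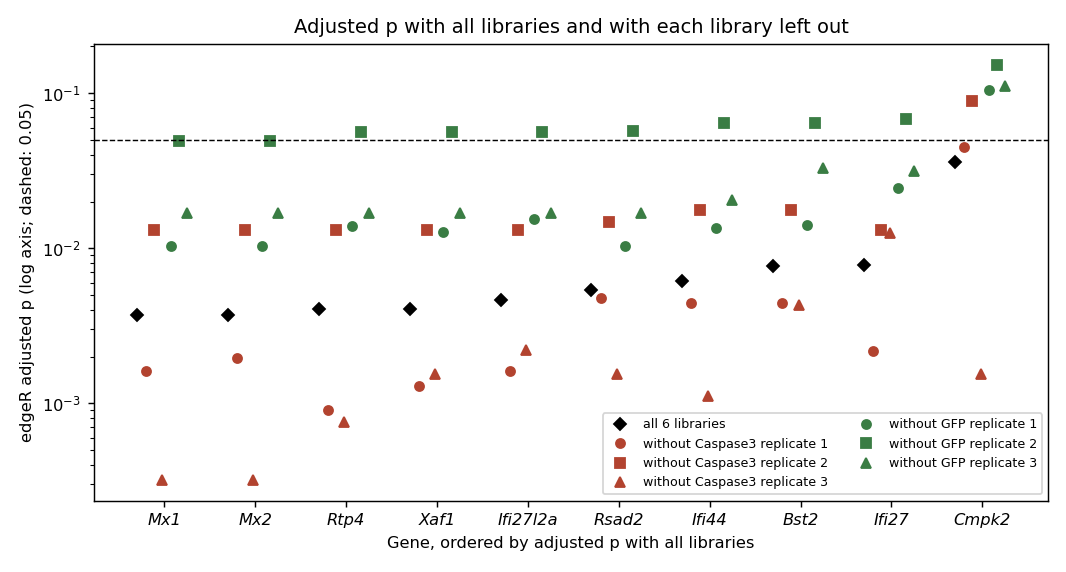
Adjusted p of each member in edgeR's quasi-likelihood test with all 6 libraries (diamonds) and with each library left out, on a log axis; the dashed line marks 0.05. Without GFP replicate 2, 8 members lie above the line, at 0.0562 to 0.152, in a fit that called 15 of 17165 tested genes higher. Cmpk2 lies above the line in 4 of the 6 fits with 1 library left out.

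Cell type markers moved with the members in part. Of 10 microglial markers 4 were called higher, among them Aif1 (2.54-fold), Csf1r (1.60-fold) and Cx3cr1 (1.53-fold). All 10 log2 fold changes were above 0, and 8 had an unadjusted p under 0.05 in edgeR. Every Caspase3 library lay above every GFP library for 7 of the 10, against 8.96% of all tested genes. The sum of the 10 was 499.7 to 663.9 CPM in the Caspase3 group against 344.4 to 405.8 CPM in the GFP group, with no marker at 0. The median log2 fold change of these 10 markers was 0.64. Of 9 T and NK cell markers 5 were tested and 3 rose (Cd3e, Cd8a and Cd8b1), with sums of 5.28 to 9.65 CPM against 1.31 to 4.91 CPM. These 3 were near the limit of detection in the GFP group, with means of 0.102, 0.222 and 0.0998 CPM. Cd4, also tested, went the other way in value without passing (log2 fold change -0.86, adjusted p = 0.782). Its 4.12 CPM in GFP replicate 3, the library with the high striatal markers, made up most of the upper end of the GFP sums. Of 8 monocyte, macrophage and neutrophil markers, 5 were tested and none was called by edgeR (4 at an unadjusted p under 0.05), with sums of 32.6 to 69.6 CPM against 15.7 to 31.7 CPM. Of 7 astrocyte markers 1 rose, Gfap, the intermediate filament of reactive astrocytes (2.47-fold, adjusted p = 0.00990), with every Caspase3 library above every GFP library. The astrocyte sums were 8211 to 10835 CPM against 9182 to 11479 CPM. None of 6 oligodendrocyte markers was called by edgeR (1 at an unadjusted p under 0.05), although all 6 log2 fold changes were above 0, with a median of 0.33 and sums of 8599 to 12325 CPM against 7472 to 8782 CPM. Endothelial markers (7 genes) were not called, at 418.1 to 482.0 CPM against 390.9 to 504.4 CPM, and none had an unadjusted p under 0.05. The part of these cell types in the rise of the members was not tested.

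Interferon transcripts themselves were at the detection limit. The 21 type I, II and III interferon genes in the table had 3 counts in all 6 libraries together, 1 each for Ifnb1, Ifna1 and Ifnk, and 18 had none. None passed the filter on low counts, so no change could be tested at this depth.

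Of the 20 tested receptor and signalling genes, 7 rose and 13 did not pass, and the median log2 fold change was 0.50. The log2 fold change was above 0 for 19 of the 20, against 49.8% of all tested genes. An unadjusted p under 0.05 in edgeR was found for 14, so a gene that did not pass was not necessarily unchanged. Irf7, which drives interferon production, rose 17.2-fold (1.70 to 29.3 CPM in group means, log2 fold change 4.11 ± 0.44, adjusted p = 0.00405), and Usp18, a brake on receptor signalling, rose 19.9-fold. The transcription factors Stat2 and Irf9 rose 2.63-fold and 4.87-fold (adjusted p = 0.00621 and 0.00569). Irf8, a regulator of myeloid cells, rose 2.67-fold. For the kinases Jak1 and Jak2 the log2 fold change was 0.15 and -0.04 (adjusted p = 0.709 and 0.922). Stat3, a transcription factor of several cytokines, also did not pass, at 0.42 (adjusted p = 0.208).

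Among 17 nucleic acid sensor genes 5 rose and 12 did not pass (median log2 fold change 0.82). Values above 0 were found for 16 of the 17, and 11 had an unadjusted p under 0.05 in edgeR. Zbp1, a sensor of Z-form nucleic acid, rose 41.8-fold from 8 counts over the GFP libraries. The RNA helicases Ddx58 (RIG-I), Ifih1 (MDA5) and Dhx58 rose 5.58-fold, 4.80-fold and 6.92-fold, and the endosomal receptor Tlr7 rose 2.45-fold. Tlr3, Traf3 and Tbk1 did not pass, with log2 fold changes of 0.61, -0.20 and 0.00. The list of 35 other antiviral effectors held 32 that rose and none that fell, with a median of 2.46. Examples were Ifit1, Ifit3, Isg15 and Oasl1, with log2 fold changes of 4.39, 3.75, 4.66 and 5.17. Among the 3 that did not pass, the nuclease Isg20 was at 2.46 (adjusted p = 0.0589) and the RNA editor Adar at 0.20 (0.493). Without GFP replicate 2 no signalling or sensor gene and 5 of the other effectors were called. That fit called 15 of all 17165 tested genes higher.

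Relatives and partners of the members were then examined: dynamins and Opa1 for Mx1 and Mx2, Cmpk1 and Dtymk for Cmpk2, the other Rtp genes, Ifi44l, Ifi27l2b, and the apoptosis inhibitors Xiap, Birc2 and Birc3 beside Xaf1. Of 15, 11 were tested and 1 rose, Birc3, 2.09-fold (adjusted p = 0.0356). That call was lost when any 1 library was left out. The median log2 fold change of the tested relatives was -0.19. Dnm1, the neuronal dynamin of vesicle retrieval, had a log2 fold change of -0.07 ± 0.15, Dnm1l, which divides mitochondria, of -0.19 ± 0.12, and Xiap, the partner of Xaf1, of -0.21 ± 0.11. Ifi44l and Ifi27l2b had 2 counts each over all libraries, all in the Caspase3 group.

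Genes that lie near the members were not called. Within 100 kb of a member, 30 other genes were tested, and edgeR, DESeq2 and limma-voom called none. Calls were rare over all tested genes too, at 1.53% higher and 0.114% lower, so none among 30 is near that share. An unadjusted p under 0.05 in edgeR was found for 2 of the 30. Every Caspase3 library lay above every GFP library for 2 of the 30, against 8.96% of all tested genes. The log2 fold changes of the 30 lay between -0.51 and 0.72 with a median of -0.01. Mvb12a, 5466 bases from Bst2, had a log2 fold change of 0.19, Ddx24, 8381 bases from Ifi27, of 0.05, and Masp1, whose gene overlaps the span of Rtp4 on the other strand, of 0.10 (adjusted p = 0.772, 0.891 and 0.857). Bace2, 8023 bases from Mx1, had the highest log2 fold change of the 30, 0.72 (unadjusted p = 0.0246, adjusted p = 0.356), with every Caspase3 library above every GFP library. These 4 were named after their values were seen, as the tested neighbours nearest to a member.

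**Figure D4:**
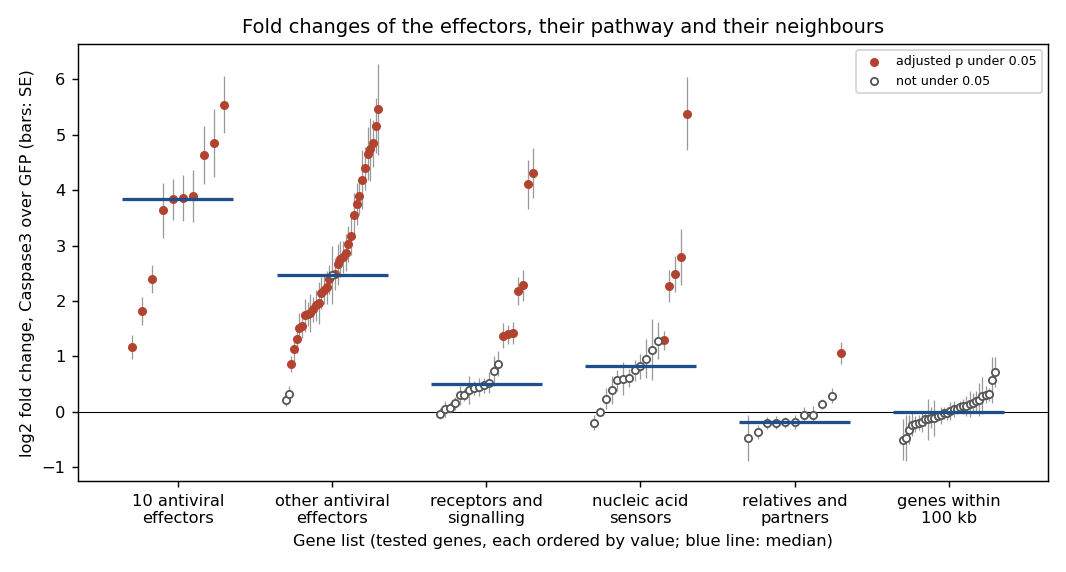
Log2 fold changes (Caspase3 over GFP) with SE of the 10 members, 4 other gene lists and the genes within 100 kb, each ordered by value; filled points passed an adjusted p of 0.05 and blue lines mark medians. The medians run from 3.85 for the members to -0.01 for the genes within 100 kb and -0.19 for relatives and partners.

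The tested gene whose profile was closest to each member, by the root mean square difference of log2 CPM (prior count 2) centred on each gene's mean over 6 libraries, was in no case another member. For Mx1 it was Cxcl13, a B cell attractant (0.28 log2 units), for Mx2 Slfn8 (0.13), for Rsad2 the guanylate-binding protein Gbp6 (0.12) and for Ifi44 Zbp1 (0.25). Ifi27l2a and Rtp4 were closest to Ifit1 (0.27) and Ifit3 (0.16), and Xaf1 to the GTPase Irgm2 (0.12). Bst2 was closest to Gm5431 (0.25). Ifi27 was closest to the lysosomal protease Ctss (0.136), with the MHC class I gene H2-K1 next (0.138). Cmpk2 was closest to the Fc receptor chain Fcer1g (0.144), with the MHC class I gene H2-T22 next (0.146). The median difference from all tested genes was 0.66 for Cmpk2 and 2.53 for Mx1. Profiles were not scaled, so genes with a fold change of similar size tend to lie close by this measure. Shared regulation was not tested.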

How the data were processed

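The authors deposited a table of raw read counts per gene and a table of FPKM values, per the file headers, which also give each gene's name, position and length. The submitters' processing notes name HISAT2, featureCounts, DESeq2 and 2 build names, mm10 and GRCm38, with no tool version. Whether counting used strand is not stated. The deposited FPKM were recovered from counts and lengths with 1 constant per library, 95.6% to 105.6% of the total count.

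Counts were tested with edgeR 4.0.16 under R 4.3.3 (low counts removed with filterByExpr, TMM factors on full library totals, glmQLFit and glmQLFTest, Caspase3 against GFP, all 6 libraries), with Benjamini-Hochberg adjustment over the 16721 genes that passed the filter, all 10 members among them, and a threshold of 0.05. SEs were derived from the size of each log2 fold change and the root of its F statistic. The test was tried on counts simulated gene by gene from the levels and dispersions of these libraries, with 200 genes changed. Such counts hold no genes that vary together, so the trial does not cover that feature of the data. Replicates differed by more than sampling noise (mean chi-square per gene 12.6 to 32.8). Groups and replicate numbers came from the sample titles.

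Alternatives were DESeq2 size factors, library totals, no filter, DESeq2 1.42.0, limma-voom (limma 3.58.1), limma on log2(FPKM + 0.1) and log2(FPKM + 1), the sample number as a block, each library left out, and Caspase3 1 and GFP 3 left out together. The members and lists were chosen with earlier results of these data known. From each list, up to 6 called genes with the smallest adjusted p and up to 3 others with the highest mean CPM could be named; a few of these are not reported here. Figures were drawn with Matplotlib 3.10.9.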

Additional observations from a re-analysis of the deposited data

How the results depend on the processing

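All 10 members stayed higher in the Caspase3 group in all 15 alternatives. Called members numbered 9 or 10 in each alternative except the fit without GFP replicate 2, and 2 to 10 over the fits that left out 1 library. The log2(FPKM + 1) scale understates low genes (Mx1 log2 fold change 1.59 against 5.54). Without Caspase3 replicate 1 and GFP replicate 3, the log2 fold changes of Ifi27l2a, Ifi44, Bst2 and Rtp4 were 3.70, 4.02, 2.94 and 3.20, and that of Cmpk2, 0.87, was the lowest of any member in any alternative. Over all genes, 255 higher and 19 lower calls became 663 and 250 with no filter, 397 and 98 with DESeq2 (which gave 21202 genes an adjusted p), 128 and 11 with log2(FPKM + 1) and 15 to 252 and 2 to 33 with 1 library left out. Lower calls were 11 with log2(FPKM + 0.1) and 77 without Caspase3 replicate 1 and GFP replicate 3. Called receptor and signalling genes numbered 11 with no filter and 0 to 7 with 1 library left out (7 with all). Called sensor genes numbered 9 with no filter, 3 with log2(FPKM + 1) and 0 to 5 with 1 library left out (5). Other effectors called were 5 to 33 with 1 library left out (32), and the count of relatives called was 0 with log2(FPKM + 1) and in each fit with 1 library left out (1). The causes were not tested.

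Same-numbered libraries did not deviate together throughout (correlations 0.06, 0.18 and 0.03 for numbers 1, 2 and 3), and not every library correlated best with its own number, so the numbers are not taken as pairs. With the replicate block, 378 genes were higher and 43 lower, 10 members were called and 0 relatives.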
